A study of Oryctolagus cuniculus with 3 samples.

Results

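The genes of the proteasome, the protease complex that degrades ubiquitin-tagged proteins, were followed in cumulus-oocyte complexes of rabbits (Oryctolagus cuniculus) kept under ammonia. Members were the rows of the gene table whose name starts with PSM, then a letter from A to G and a digit. This took 50 of 39681 rows, of which 47 had a RefSeq messenger RNA and 3 were assembled loci without one. All 50 had at least 10 estimated counts in the higher library. The pattern also took in PSMC3IP, which is named for binding PSMC3 and is a partner of meiotic recombinases, not a proteasome subunit. No row was matched to PSMA7, the alpha subunit that PSMA8 replaces, and PSMA7 is not analysed here. PSMB7 stands under the locus name LOC100349446;LOC103352017, outside the pattern, and is used below only as the partner of PSMB10. The row of PSMG1 is merged with its neighbour BRWD1.

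The study kept 150 female IRA rabbits, 35 days old at the start, for 4 weeks in rooms with set ammonia in the air. The library labelled CG came from rabbits under less than 3 ppm, LAC from rabbits at 10 ppm and HAC from rabbits at 30 ppm. Each group had 1 library; the sources used here do not say how many rabbits were pooled in it. A cumulus-oocyte complex is an oocyte with the somatic cumulus cells around it, taken here from ovaries after slaughter.

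The proteasome is built from a barrel-shaped core particle and a regulatory particle that caps it. Rings of alpha subunits gate the barrel, and rings of beta subunits hold the protease sites inside. In the regulatory particle a ring of ATPases unfolds the substrate, while non-ATPase subunits bind the ubiquitin chain and remove it. Interferon-induced beta subunits can replace the constitutive ones and give the immunoproteasome, and other caps (PSME1 to PSME4) bind the same core. In oocytes, proteasomes degrade cyclin B and securin at the exit from meiotic metaphase.

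With 1 library per group there was no replicate check, no test and no p-value. A gene was called higher or lower only when the difference between LAC and CG was at least 1 on the log2(CPM + 1) scale, where CPM is the estimated count relative to library size after TMM scaling, with at least 10 counts in the higher library. The estimated counts summed to 68523767 in LAC and 78461882 in CG, and a count stands for about 0.5 reads. Intervals are 95% exact binomial intervals on halved counts and cover counting error only. The gene table in the file of HAC was the same as that of LAC in 39681 of 39681 rows, so no gene-level values labelled HAC were analysed here. The label LAC of this shared table is itself uncertain, because its FPKM maximum of 39492 is the one that the statistics block in the file of HAC gives, where the block in the file of LAC gives 86394. Each direction below therefore holds for the library labelled LAC, whichever ammonia group it came from. Of 11 oocyte markers with a row, 11 were lower in LAC, with summed levels of 890 CPM in LAC and 4537 CPM in CG. The 9 granulosa and cumulus markers summed to 16551 CPM in LAC and 16445 CPM in CG, with 0 called, and the 6 stroma markers to 134 CPM in LAC and 27.0 CPM in CG, with 6 higher. In such bulk samples fewer oocytes and less RNA per oocyte cannot be told apart.

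Few proteasome genes passed the size rule between the library labelled LAC and that of CG. Of the 47 annotated members, 3 were lower and 0 higher, which is 6.38% lower. Among all 15009 coding rows, 11.0% were lower and 1.89% higher by the same rule, so the members' share did not stand above the background. The lowest count of a constitutive particle gene in either library was 2453. Among the 4909 coding rows with a mean of at least that count, 9.80% were lower, beside 3.45% of the 29 particle genes. The 3 lower members were PSMA8, a germ-line alpha subunit, PSMC2, an ATPase of the regulatory particle, and PSMC3IP. The median difference of the members was -0.31, against -0.14 over all coding rows, and 40 of 47 differences were below 0, which is 85.1% against 61.9% of coding rows. The sum over the 47 was 3159 CPM in LAC and 3971 CPM in CG, or 0.313% of counts in LAC and 0.401% in CG. How many members lay below 0 depended on the scaling. With TMM over coding genes alone every row moved up by 0.18, the coding median came to -0.003, the members' median to -0.14, and 26 of 47 members were below 0. The 5 members nearest to the members' median were PSMD14, PSMD11, PSMA6, PSMD13 and PSMD6, with differences of -0.31 to -0.43.

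**Figure D1:**
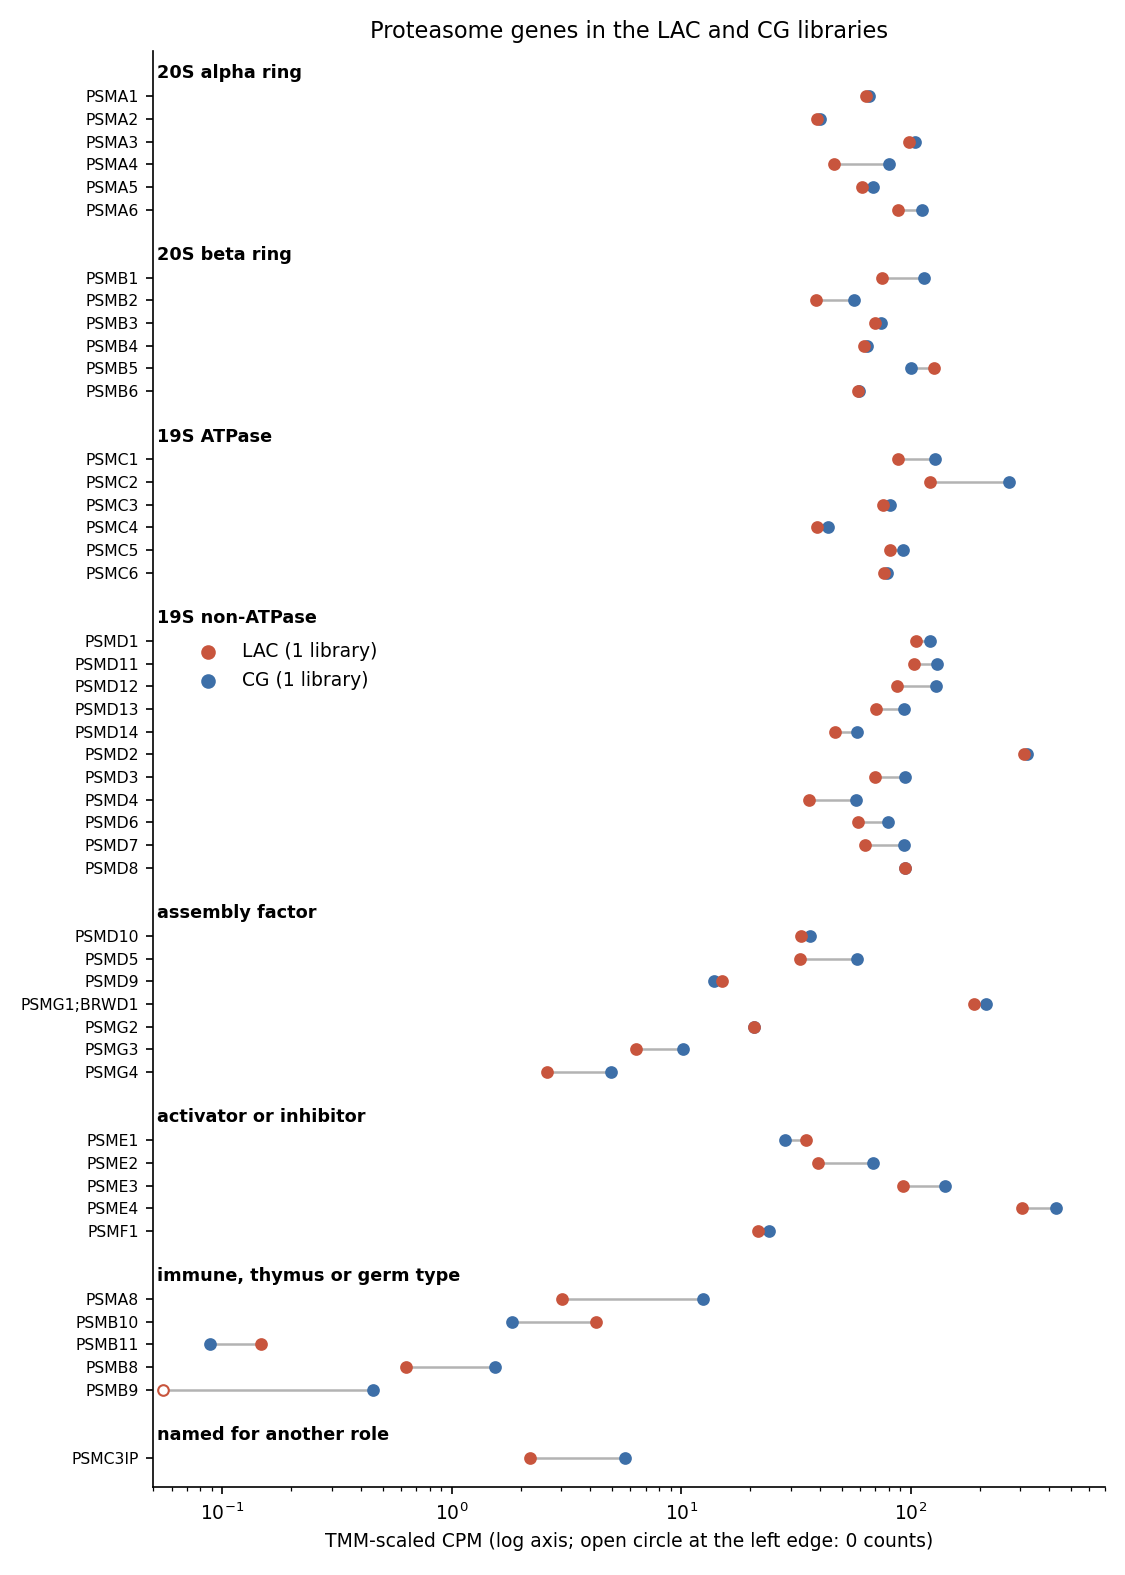
TMM-scaled CPM (log axis) of each annotated proteasome gene in the library labelled LAC (red) and that of CG (blue), 1 library each, grouped by role. Most pairs lie close together. PSMA8, PSMC3IP, PSMB8 and PSMC2 stand apart with the LAC point to the left, and PSMB10 with it to the right. The open circle marks PSMB9, with 0 counts in LAC.

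The core particle had 12 constitutive members with a row, and none was called in either direction. They summed to 826 CPM in LAC and 939 CPM in CG, with a median difference of -0.09. In the alpha ring, which gates the barrel, the median over 6 genes was -0.12, and in the beta ring, which holds the protease sites, it was -0.06 over 6. Both medians changed sign with TMM over coding genes alone, to 0.05 and 0.11, so no direction is given for either ring.

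In the alpha ring PSMA3 had 97.8 CPM in LAC and 104 CPM in CG. PSMA6 had 87.9 CPM in LAC and 112 CPM in CG, and PSMA2 had 39.1 CPM in LAC and 40.2 CPM in CG. PSMA4 differed most within the ring, with 46.0 CPM in LAC against 80.2 CPM in CG, a difference of -0.79 that did not pass the rule. PSMA1, PSMA2 and PSMA3 lay within 0.10 of 0.

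In the beta ring PSMB5, which carries the chymotrypsin-like site, had 126 CPM in LAC and 99.9 CPM in CG, a difference of 0.33 and the largest above 0 in either ring. PSMB6, which carries the caspase-like site, had 58.8 CPM in LAC and 59.6 CPM in CG. The PSMB7 locus, whose product carries the trypsin-like site, had 57.7 CPM in LAC and 67.9 CPM in CG. Thus none of the genes for the 3 protease sites passed the rule. Within a library, where scaling plays no part, there were 214 counts of PSMB5 for every 100 of PSMB6 in LAC and 168 in CG, a ratio of 1.28 (95% interval 1.19 to 1.37). Among the beta subunits without a protease site, PSMB1 had 74.9 CPM in LAC and 114 CPM in CG, and PSMB4 had 62.5 CPM in LAC and 64.1 CPM in CG.

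**Figure D2:**
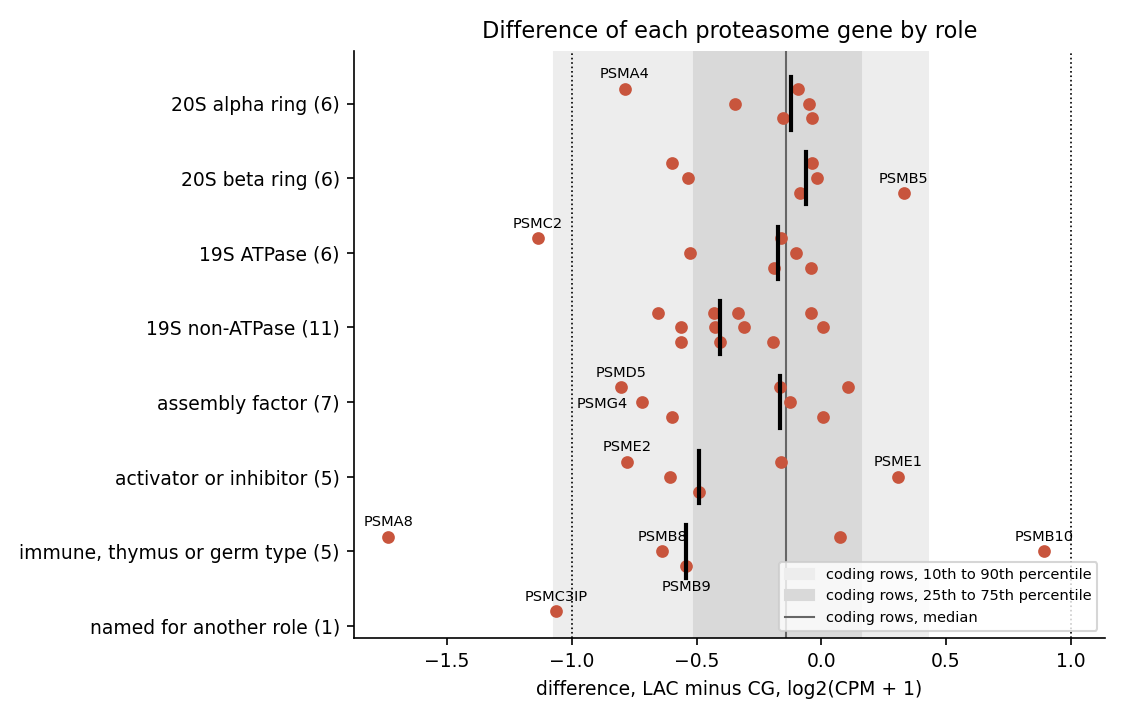
Difference of each annotated proteasome gene, LAC minus CG, on the log2(CPM + 1) scale, by role, with the number of genes in brackets, the median of each role as a black bar, and the dotted lines at the size rule of 1. Grey bands give the spread of all coding rows, most members fall inside it, and PSMA8, PSMC2 and PSMC3IP lie left of the dotted line.

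The regulatory particle had 17 members, of which 1 was lower (5.88%, against 11.0% of coding rows) and 0 higher. They summed to 1529 CPM in LAC and 1963 CPM in CG, with a median of -0.33. Counts of the regulatory particle for every 100 of the core particle were 185 in LAC and 209 in CG, a ratio of 0.885 (95% interval 0.868 to 0.902). Part of that difference lay in PSMC2, since the ratio without it was 0.944 (0.925 to 0.962). These are counts without correction for length, so the ratio compares libraries and gives no number of particles.

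PSMC2, one of the ATPases that thread the substrate into the core, was lower in LAC. It had 122 CPM in LAC against 269 CPM in CG, 2.21-fold lower (95% interval 2.13 to 2.29), a difference of -1.14. The gene lies on sequence NC_013675.1 of OryCun2.0, at 39652756 to 39665592 on the plus strand. The other 5 ATPases did not pass the rule. PSMC1, the largest of these differences at -0.52, had 88.1 CPM in LAC and 127 CPM in CG. PSMC6, the smallest, had 76.3 CPM in LAC and 78.5 CPM in CG. PSMC3, PSMC4 and PSMC5 lay between -0.10 and -0.19. PSMC2 therefore made up 25.3% of the counts of the 6 ATPases in LAC and 38.9% in CG, and for every 100 counts of the other 5 there were 33.9 in LAC and 63.6 in CG, a ratio of 0.532 (0.510 to 0.556). The call for PSMC2 rests on the scaling: with TMM over coding genes alone the difference was -0.96, just under the rule. PSMC2 was also unusual in its FPKM, with 434 counts per deposited FPKM unit in CG against 18.0 for PSMD4, the extremes of the 29 particle genes and 24.1-fold apart, so deposited FPKM does not order the levels of these genes.

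Among the 11 non-ATPase subunits 0 were called, and the median was -0.40, against -0.14 for all coding rows and -0.23 with TMM over coding genes alone. PSMD2, a scaffold of the base that binds ubiquitin and ubiquitin-carrying shuttle proteins, had 312 CPM in LAC and 322 CPM in CG. PSMD4, a ubiquitin receptor, had the largest difference, -0.65, with 36.1 CPM in LAC and 57.4 CPM in CG. PSMD14, the deubiquitinase that cuts the chain off, had 46.6 CPM in LAC and 58.0 CPM in CG. PSMD7, which pairs with PSMD14 in the lid, had 62.9 CPM in LAC and 93.3 CPM in CG. The lid subunits among these 11, other than PSMD8, lay below 0 under each scaling tried, without a call. PSMD8 had 94.6 CPM in LAC and 94.3 CPM in CG. PSMD1, a scaffold of the base, had 106 CPM in LAC and 121 CPM in CG, and PSMD11, a lid subunit, had 103 CPM in LAC and 129.97 CPM in CG. PSMD12 and PSMD3, both lid subunits, differed by -0.56 and -0.43.

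Of the 7 assembly factors 0 were called. PSMD5, PSMD9 and PSMD10 are chaperones of the ATPase base. PSMD5 had 33.0 CPM in LAC and 58.3 CPM in CG, a difference of -0.80. PSMD9 had 15.0 CPM in LAC and 13.8 CPM in CG, and PSMD10 had 33.4 CPM in LAC and 36.5 CPM in CG. The base chaperones thus did not move together. PSMG1 to PSMG4 help to build the alpha ring. The row that merges PSMG1 with BRWD1 had 188 CPM in LAC and 212 CPM in CG, and its share of each gene is not known. PSMG2 had 20.8 CPM in LAC and 20.7 CPM in CG. PSMG3 differed by -0.60, and PSMG4, with 2.61 CPM in LAC and 4.94 CPM in CG, by -0.72. POMP, the maturation factor of the beta ring, lies outside the name pattern and had 72.0 CPM in LAC and 77.0 CPM in CG.

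The activators and the inhibitor had a median of -0.49 over 5 genes, with 0 called. PSME1 and PSME2 form a joint interferon-induced cap, and their genes lay on opposite sides of 0. PSME1 had 35.1 CPM in LAC and 28.2 CPM in CG. PSME2 had 39.6 CPM in LAC and 68.7 CPM in CG. For every 100 counts of PSME1 there were 113 of PSME2 in LAC and 244 in CG, a ratio of 0.463 (95% interval 0.417 to 0.514). PSME3, which forms a nuclear cap of its own, had 92.5 CPM in LAC and 141 CPM in CG. PSME4, a cap known for degrading acetylated histones in mouse testis, had 305 CPM in LAC and 429 CPM in CG, a difference of -0.49. PSMF1, an inhibitor of the core particle in vitro, had 21.5 CPM in LAC and 24.2 CPM in CG.

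**Figure D3:**
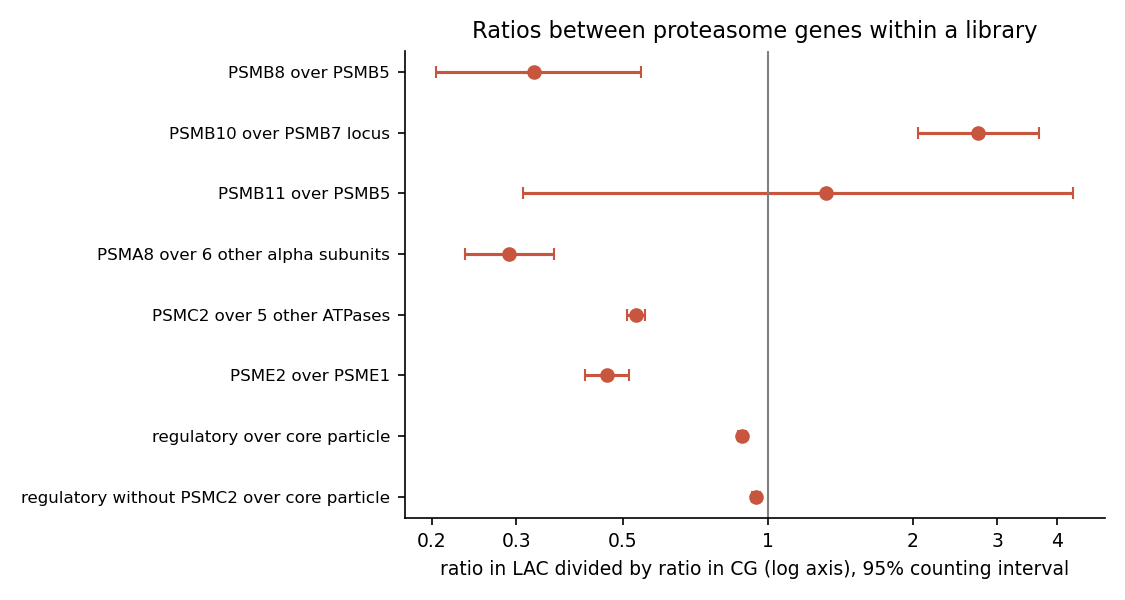
Ratio between the counts of proteasome genes within a library, LAC divided by CG (log axis), with 95% counting intervals, for 1 library each. The intervals of PSMB8, PSMA8, PSMC2 and PSME2 lie below 1 and that of PSMB10 lies above it, while that of PSMB11 spans 1.

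The subunits of the immune, thymus and germ-line forms were scarce in both libraries, 8.07 CPM in LAC and 16.3 CPM in CG over 5 genes, beside 826 CPM in LAC and 939 CPM in CG for the constitutive core. PSMB8, which replaces PSMB5 in the immunoproteasome, had 43 counts in LAC and 122 in CG, or 0.633 CPM in LAC and 1.54 CPM in CG. The CPM in CG was 2.43 times that in LAC (95% interval 1.44 to 4.07), but the difference of -0.64 did not pass the rule. PSMB9, which replaces PSMB6, had 0 counts in LAC and 36 in CG, at least 5.15-fold lower against a floor of 6 counts (3 reads) in the library, with a difference of -0.54. The 95% counting interval allows a smaller fold, down to 3.77. PSMB10, which replaces PSMB7, lay on the other side, with 4.26 CPM in LAC and 1.83 CPM in CG, a ratio of 2.32 (1.75 to 3.14). Its difference of 0.89 fell just short of the rule, and it was 1.02 with TMM over coding genes alone and 1.01 in deposited FPKM. The 3 immune-type subunits thus did not lie on one side of 0.

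Set against their constitutive partners within a library, there were 0.503 counts of PSMB8 for every 100 of PSMB5 in LAC and 1.54 in CG, a ratio of 0.326 (95% interval 0.205 to 0.545). There were 0 counts of PSMB9 for every 100 of PSMB6 in LAC and 0.763 in CG. There were 7.37 counts of PSMB10 for every 100 of the PSMB7 locus in LAC and 2.70 in CG, a ratio of 2.73 (2.05 to 3.66). PSMB11, the beta subunit of the thymus proteasome, had 10 counts in LAC and 7 in CG, too few to order the libraries. Leukocyte markers, which bear on these subunits since blood cells carry immunoproteasomes, summed to 30.7 CPM in LAC and 68.9 CPM in CG over 11 genes, with 2 higher and 2 lower and a median of 0.35 over the 10 tested. The sum and the median differ in sign. MSR1, a scavenger receptor of macrophages, had 8.20 CPM in LAC and 47.3 CPM in CG, and MS4A1, a B cell marker, had 2.83 CPM in LAC and 14.01 CPM in CG. MRC1 and CD163, also macrophage receptors, were higher, MRC1 with 8.04 CPM in LAC and 0.733 CPM in CG and CD163 with 1.43 CPM in LAC and 0.101 CPM in CG. CD3E, which marks T cells, was at 0 in both, and ITGAM, a myeloid marker, at 0 in CG. The part of leukocytes in the values of PSMB8, PSMB9 and PSMB10 was not tested.

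PSMA8 was lower in LAC. This alpha subunit replaces PSMA7 in the proteasome of spermatogenic cells, as known from mouse. It had 206 counts in LAC and 984 in CG, or 3.03 CPM in LAC against 12.4 CPM in CG, 4.10-fold lower (95% interval 3.31 to 5.12), a difference of -1.74. It lies on NC_013677.1 at 67357559 to 67418806, on the plus strand. For every 100 counts of the 6 constitutive alpha subunits there were 0.766 of PSMA8 in LAC and 2.64 in CG, a ratio of 0.290 (0.234 to 0.359). PSMA8 passed the rule under every scaling and pseudocount tried and in deposited FPKM, with differences between -2.00 and -1.12. The 11 oocyte markers were lower in LAC as well, with a median of -2.13. The largest of them were BMP15, an oocyte growth factor, with 345 CPM in LAC and 1771 CPM in CG, and WEE2, a kinase of meiotic arrest, with 206 CPM in LAC and 1169.6 CPM in CG. The part of the oocyte RNA in the value of PSMA8 was not tested.

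PSMC3IP, which works with MND1 to load recombinases on DNA in meiosis, was lower in LAC. It had 2.19 CPM in LAC against 5.67 CPM in CG, 2.58-fold lower (95% interval 1.99 to 3.42), a difference of -1.06. With TMM over coding genes alone it was -0.93, and with a pseudocount of 5 CPM -0.57, both under the rule. Of 8 meiotic recombination partners reported here, 3 were lower and 0 higher, with a median of -0.80, against 11.0% lower and a median of -0.14 over all coding rows. MND1 had 6.82 CPM in LAC and 20.2 CPM in CG, and SYCP1, a protein of the synaptonemal complex, had 2.37 CPM in LAC and 18.5 CPM in CG. HORMAD1, a protein of the meiotic chromosome axis, differed by -1.08, past the rule, while DMC1, the meiotic recombinase, had 0.751 CPM in LAC and 0.859 CPM in CG. PSMC3IP thus lay below CG beside its partner MND1 and beside the oocyte markers, and the part of the oocyte RNA in it was not tested.

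**Figure D4:**
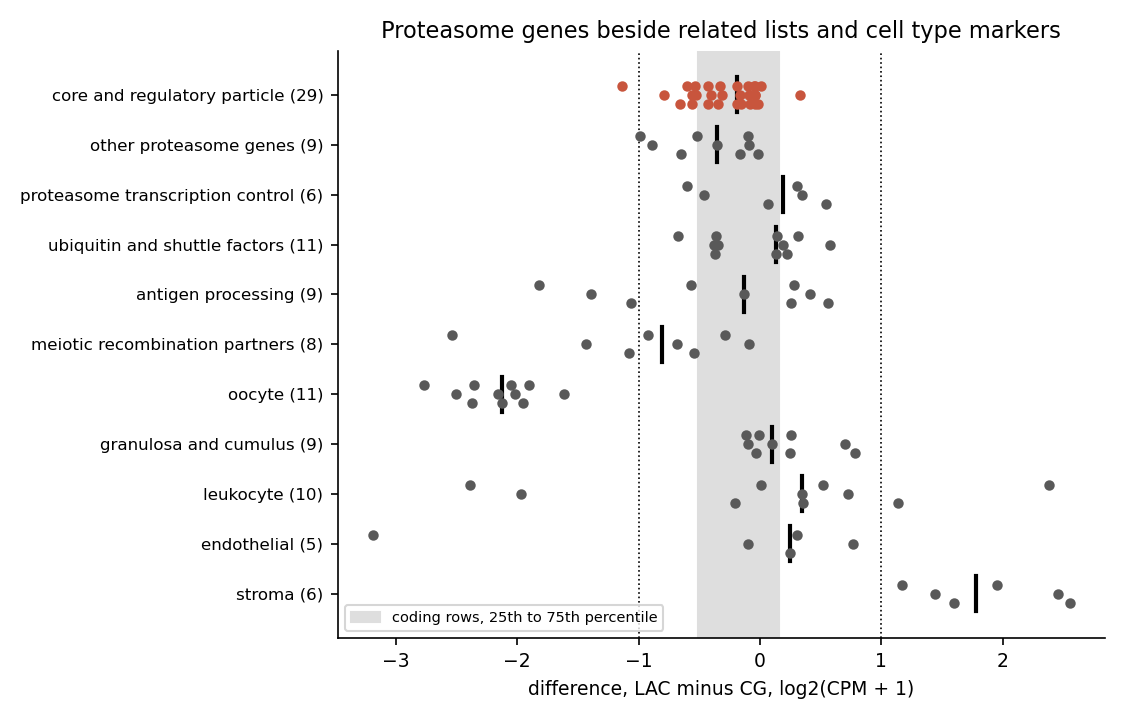
Difference of each gene, LAC minus CG, on the log2(CPM + 1) scale, for the 29 core and regulatory particle genes (red) and for related lists and cell type markers (grey), with medians as black bars, dotted lines at 1 on either side of 0 and the middle 50% of coding rows as a grey band. The particle genes lie near the band, the 11 oocyte markers lie left of -1.6, and the 6 stroma markers lie right of 1.

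Other genes of proteasome work were taken from lists, and few were called. Of 14 further proteasome genes 9 had a row under their own symbol, with 0 called and a median of -0.35. These 9 were all below 0 with TMM over all loci, and those nearer to 0 than 0.18 change sign with TMM over coding genes alone. AKIRIN2, which brings proteasomes into the nucleus, came closest to the rule, with 132 CPM in LAC and 261 CPM in CG and a difference of -0.99. Median-of-ratios factors and total count shift every row by -0.033 and -0.026 on the log2(CPM) scale, enough to take AKIRIN2 past the rule. ZFAND5, an activator of the proteasome, had 199 CPM in LAC and 371 CPM in CG, and UCHL5, a deubiquitinase of the regulatory particle, 34.7 CPM in LAC and 50.2 CPM in CG. KIAA0368, which the files describe as the ECM29 homolog, a factor that binds the assembled particle, had 163 CPM in LAC and 191 CPM in CG. LOC108177235, described as the subunit SEM1 but without a RefSeq messenger RNA, had 40.1 CPM in LAC and 39.0 CPM in CG. LOC108178368, described as the subunit DSS1, another name of SEM1, has a RefSeq messenger RNA. It had 4.03 CPM in LAC and 6.04 CPM in CG, a difference of -0.48, so the rows of this subunit lay on both sides of 0. KIAA0368 and these LOC rows stand outside the 9.

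The transcription factors and processing enzymes that set proteasome gene expression had 6 of 8 genes with a row, 0 called and a median of 0.19. NFE2L1, the factor that raises proteasome genes when proteasomes are short, had 662 CPM in LAC and 633 CPM in CG. DDI2 encodes the protease that activates NFE2L1, and the row that merges DDI2 with RSC1A1 had 60.6 CPM in LAC and 83.6 CPM in CG. Of 15 ubiquitin genes and shuttle factors 11 had a row, with 0 called and a median of 0.13. UBB, a polyubiquitin gene, had 355 CPM in LAC and 450.2 CPM in CG. VCP, the ATPase that hands substrates to the proteasome, had 355 CPM in LAC and 322 CPM in CG. No gene of either list passed the rule, as in the core particle.

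Of 10 genes of antigen processing, which uses the peptides of the immunoproteasome, 9 could be tested by the rule, with 3 lower and 0 higher and a median of -0.13, against 11.0% lower, 1.89% higher and a median of -0.14 over all coding rows. NLRC5, a transactivator of the class I antigen genes, had 1.15 CPM in LAC and 6.61 CPM in CG. IRF1, an interferon response factor, had 8.70 CPM in LAC and 19.2 CPM in CG, and IRF8, another, had 0.280 CPM in LAC and 2.36 CPM in CG. The 3 lower genes are regulators of transcription. The peptide transporter genes and class I light chain, with which the immune subunits act, were not called: TAP1 had 4.61 CPM in LAC and 5.15 CPM in CG, and B2M had 49.5 CPM in LAC and 40.6 CPM in CG.

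Rows that may be near-copies of members make some counts uncertain, though no sequences were compared here. Outside the name pattern, 46 rows carry a description of a proteasome product, of which 27 had at least 10 counts and 0 were called. Of the 46, 31 had at most 1 CPM in both libraries and 4 had over 20 CPM in both. Those 4 were the PSMB7 locus, POMP, KIAA0368 and LOC108177235, all reported above, so not every row of the 46 is a possible copy. The product of PSMC1 is described for 10 of the 46, which summed to 8.39 CPM in LAC and 4.42 CPM in CG, beside 88.1 CPM in LAC and 127 CPM in CG for PSMC1 itself. The product of PSMC6 is described for 7 of them, which summed to 0.353 CPM in LAC and 0 CPM in CG. A larger share stood beside PSMA2. LOC100355217, described as proteasome subunit alpha type-2, had 13.9 CPM in LAC and 9.51 CPM in CG, a difference of 0.50. PSMA2 itself had 39.1 CPM in LAC and 40.2 CPM in CG, a difference of -0.04, so its side of 0 is uncertain. Whether reads were split between these rows and the genes was not tested. Other members overlap a coding gene on the opposite strand: PSMC3IP overlaps MLX, PSMC5 overlaps FTSJ3 and SMARCD2, PSMC1 overlaps NRDE2, PSMD1 overlaps HTR2B, PSMD10 overlaps ATG4A, PSMG1 overlaps LOC108175972, PSMG4 overlaps SLC22A23 and PSME1 overlaps EMC9. Whether reads of these pairs were kept apart depends on whether the counting used strand. The second strand was marked with dUTP, but no source used here says whether the counting used it.

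Long non-coding transcripts at proteasome genes are the one place where all libraries could be compared, in the authors' FPKM. There were 13 such transcripts, overlapping a member or within 5000 bases of it. Between LAC and CG, 9 had at least 1 FPKM in the higher library, of which 1 was higher and 1 lower, against 13.6% higher and 12.4% lower among 10259 long non-coding transcripts. Between HAC and CG, 10 qualified, with 0 higher and 1 lower, against 10.1% higher and 7.06% lower in the background. Between HAC and LAC, 9 qualified, with 1 higher and 2 lower, against 16.8% higher and 12.6% lower. With so few transcripts these counts do not stand apart from the background. The coverage labelled LAC gave the counts of the shared gene table, so the doubt about its label reaches the LAC and HAC values of these transcripts, and no order with the ammonia concentration is read from them.

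The most abundant was MSTRG.5704.1, an intergenic transcript of 1 exon and 5011 bases that starts 496 bases from PSMD7, on the opposite strand. Its level was 43.3 in CG, 24.8 in LAC and 14.6 in HAC, all in FPKM. It was lowest in the library labelled HAC. In unscaled FPKM the difference between HAC and CG, -1.51, passed the rule, while that between LAC and CG, -0.78, did not. With median-of-ratios factors both passed, at -1.58 between HAC and CG and -1.22 between LAC and CG. PSMD7 itself, in the gene table, differed by -0.56 between LAC and CG. The transcript and PSMD7 do not overlap.

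MSTRG.24692.3, a transcript assembled at TBP that lies 1749 bases from PSMB1, stood at 0.32 FPKM (CG), 4.09 FPKM (LAC) and 1.02 FPKM (HAC), higher in LAC by 1.95. XR_001795057.1 of LOC103351263, on the strand opposite PSMA3 and 514 bases from it, stood at 2.34 FPKM (CG), 4.93 FPKM (LAC) and 1.77 FPKM (HAC). MSTRG.16860.1, in an intron of PSMA6, had 1.56 FPKM in CG, was listed at 0 in LAC and had 0.87 FPKM in HAC. The antisense transcript of PSME4, MSTRG.2807.1, stood at 2.08 FPKM (CG), 2.49 FPKM (LAC) and 1.88 FPKM (HAC). Of these 4, in unscaled FPKM, PSMA6's intronic transcript was lowest in the LAC library and the other 3 were highest in it. With median-of-ratios factors MSTRG.2807.1 differed by -0.13 between LAC and CG, so it was no longer highest in LAC.

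**Figure D5:**
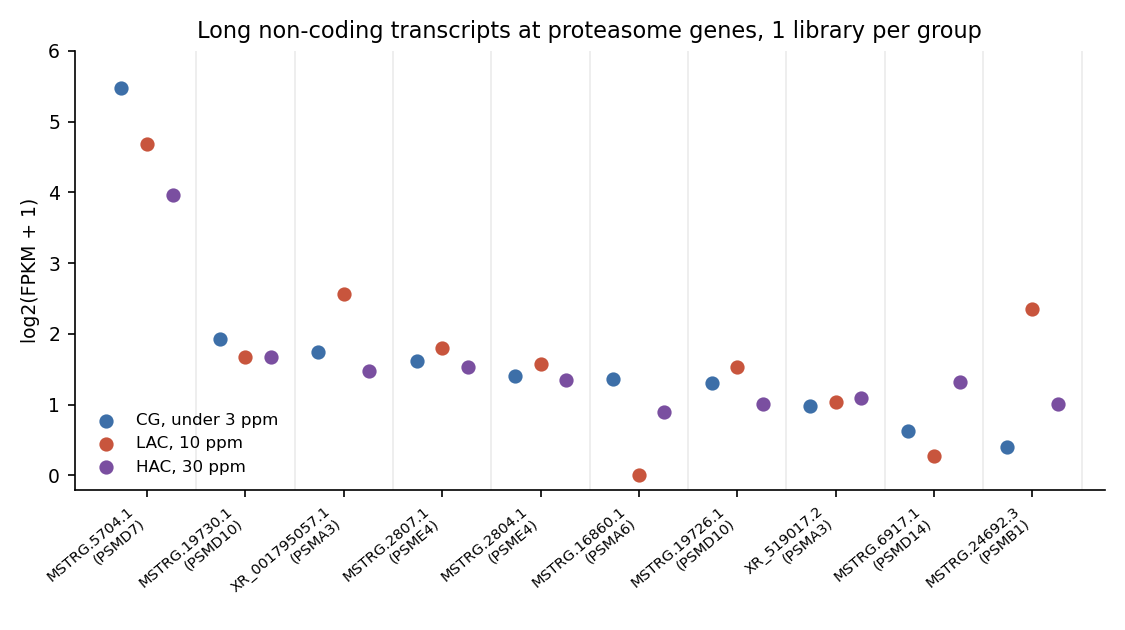
Long non-coding transcripts at proteasome genes with at least 1 FPKM in a library, as log2(FPKM + 1) in the libraries labelled CG, LAC and HAC, 1 library each. MSTRG.5704.1 beside PSMD7 stands highest, at 43.3 (CG), 24.8 (LAC) and 14.6 (HAC) FPKM, and the others stay under 5 FPKM with no common order.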

How the data were processed

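RNA was depleted of ribosomal RNA and sequenced from 1 library per ammonia group. Per the submitters' processing notes, fastp, HISAT2 and the build OryCun2.0 were used; no source used here names the abundance step. Per the file headers, the authors deposited estimated counts and FPKM per gene, and coverage (a signal) and FPKM per long non-coding transcript. In 100% of 8638 loci with 1 transcript in LAC and 100% of 8651 in CG, a count matched coverage times length over 75. The match was to within 1 count plus 1%, and reads have 150 bases. In the long non-coding table, the coverage labelled LAC gave the shared gene table's count within 5% at 97.2% of 8638 loci, that labelled HAC at 4.12% of 8795. Of 12 columns of per-sample values, 2 were unused: the copied gene columns of HAC.

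Counts were scaled by TMM, with 30% of ratios and 5% of levels trimmed, in Python 3.11.15 with pandas 2.3.3, numpy 2.4.6 and SciPy 1.17.1. The scaling and size rule were checked on simulated data with equal numbers of genes raised and lowered. That setting cannot check the scaling where lower calls outnumber higher ones, as here. A pseudocount of 1 understates changes of low genes. Long non-coding FPKM was taken unscaled, and a call needed at least 1 FPKM in 1 of both libraries. Named are members past the rule, the most abundant and the extremes of each role, all activators and the immune, thymus and germ-line subunits, and some genes of the other lists; 1 gene of the meiotic list is not reported here. A symbol was looked up in RefSeq, assembly mOryCun1.1, for names only. Members and lists were chosen with earlier results of these data known. Alternatives covered scaling, pseudocount, minimum count, the size rule, FPKM and membership.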

Additional observations from a re-analysis of the deposited data

How the results depend on the processing

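No paired analysis was possible because each group has 1 library, and for the same reason no library could be left out. The counts of members (0 higher, 3 lower) and of coding rows (283 higher, 1653 lower) moved as follows. With TMM over coding genes alone 1 member was higher (PSMB10) and 1 lower (PSMA8), against 396 and 1340 coding rows. With a pseudocount of 0.1 CPM 1 member was higher and 5 lower, against 943 and 2740 coding rows, and the share of higher calls among coding rows went to 25.6%, against 14.6%. With a pseudocount of 5 CPM 112 coding rows were higher and 909 lower. In deposited FPKM 1 member and 179 coding rows were higher. At a size rule of 0.5, 1 member was higher and 17 lower, against 1172 and 3808 coding rows. At a size rule of 2, 0 members were lower, against 41 coding rows higher and 323 lower. Among single members, pseudocount 0.1 gave -1.16 for PSMB8, -2.47 for PSMB9 and 1.17 for PSMB10. In alternatives chosen after seeing the data, deposited FPKM gave ratios of 0.556 for PSMC2 over the other ATPases and 0.939 for the regulatory over the core particle, and adding the PSMB7 locus or leaving out the PSMG1 row moved no result. Of the long non-coding transcripts, 2 were lower in LAC than CG and 1 lower in HAC than LAC with median-of-ratios factors, and 2 were higher in LAC than CG and 2 in HAC than CG at a pseudocount of 0.1 FPKM. Of 482 alternative values 439 kept their side of the rule or stayed near the value reported, and 0 called values changed sign. Uncalled medians did: TMM over coding genes alone gave 0.05 for the alpha ring, 0.11 for the beta ring and 0.01 for the assembly factors. Apart from the size rules and the pseudocounts, the cause of each move was not tested. Depth limits PSMB9 and PSMB11, at 36 counts or fewer in each library.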

Other observations

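Some members are chromosomal neighbours. PSMB8 and PSMB9 lie 10811 bases apart on opposite strands of one sequence, and their differences between LAC and CG were -0.64 and -0.54. PSME1 and PSME2 lie 4909 bases apart on opposite strands, with differences of 0.31 and -0.78. PSMB5 and PSMB11 lie 4421 bases apart on opposite strands, with differences of 0.33 and 0.08, the second from 10 counts in LAC and 7 in CG. PSMB4 and PSMD4, 147245 bases apart on the same strand, had differences of -0.04 and -0.65. Of the 3 assembled loci that carry a member's name without a RefSeq messenger RNA, the second row of PSMA1 had 2.84 CPM in LAC and 2.55 CPM in CG, the antisense row of PSME4 had 4.05 CPM in LAC and 3.25 CPM in CG, and the intronic row of PSMA6 had 0 counts in LAC and 30 in CG.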
